A study of Mus musculus with 10 samples.

Results

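The Notch pathway genes described here are 4 receptors (Notch1, Notch2, Notch3 and Notch4), 2 membrane-bound ligands (Dll4 and Jag1), the secreted modulator Egfl7 and 2 transcriptional targets (Hes1 and Hey1). They were chosen by gene symbol from the 12934 genes of a normalized count table, where all 9 were present. The choice was made with earlier results of the same libraries known, among them lower values of Notch1, Dll4 and Egfl7 in diabetes, so the number of these genes that differ is given as a description and supports nothing further. A gene entered the tests when its normalized count reached 10 in at least 3 libraries. Of the 9 genes, 8 did so, and Hey1 did not.

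Notch receptors are single-pass membrane proteins that bind ligands of the Delta-like and Jagged families on neighbouring cells. Binding exposes the receptor to cleavage by a metalloprotease and then by gamma-secretase, and the released intracellular domain joins the DNA-binding protein RBPJ and a Mastermind coactivator to switch on genes such as the Hes and Hey repressors. In blood vessels the pathway is known for arterial specification and for restraining sprouting downstream of VEGF, with Dll4, Notch1 and Notch4 mainly in endothelium and Notch3 mainly in mural cells. In the glomerulus, the capillary filter of the kidney, Notch signalling in podocytes is known for its role in kidney development and in disease models.

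RNA was sequenced from glomeruli isolated from wildtype DBA/2J mice aged 17 weeks, an inbred strain that the labels call susceptible to diabetic kidney disease. The diabetic Esm-1 group (n = 3) was given, at 7 weeks and by hydrodynamic injection (a large volume injected fast), a plasmid for mouse Esm-1 together with Sleeping Beauty transposase, which inserts its cargo into the genome, followed by streptozotocin, a toxin of insulin-producing beta cells, from 8 weeks and a 60% high-fat diet for 5 weeks. The diabetic saline group (n = 4) received saline by the same route, with the same streptozotocin and diet, and the non-diabetic saline group (n = 3) received saline and vehicle without the high-fat diet. Diabetes and diet therefore cannot be told apart, no group analysed here received the Esm-1 plasmid without diabetes, and no group analysed here received an empty plasmid or the transposase alone. Esm-1 (endocan) is a proteoglycan that endothelium secretes. The labels do not say whether each library is 1 animal, so the p-values measure the spread between libraries, which may be partly technical.

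The libraries held 3931712 to 11300629 reads, of which 91.1% to 92.8% fell on Rn45s, Lars2 and Mir6236, which left 338549 to 962321 reads for all other genes and 450 to 2021 reads for the 9 Notch genes together. A single read was worth 0.619 to 1.77 normalized counts, so a count of 0 allows up to 1.86 to 5.31 normalized counts, the value of 3 reads, for counting error only. Esm1 itself had 10, 4 and 0 reads in the diabetic Esm-1 libraries, against 4, 1, 2 and 1 reads in diabetic saline and 4, 2 and 0 reads in non-diabetic saline, which is too few for a test. Of 22 endothelial markers, 19 passed the filter, and their mean log2 value was 5.93 ± 0.15 in diabetic Esm-1 libraries (SD, n = 3), 6.41 ± 0.23 in diabetic saline (n = 4) and 6.71 ± 0.16 in non-diabetic saline (n = 3). The mean of 20 podocyte markers followed the same order, at 6.49 ± 0.29, 7.14 ± 0.26 and 7.55 ± 0.21 in the diabetic Esm-1, diabetic saline and non-diabetic saline groups. Markers of the distal nephron ran the other way, at 7.66 ± 0.24, 7.42 ± 0.23 and 6.65 ± 0.71 in the same 3 groups. Proximal tubule markers were at 6.08 ± 0.34 in diabetic Esm-1, 5.31 ± 0.58 in diabetic saline and 5.78 ± 0.96 in non-diabetic saline. Of 13 mesangial and smooth-muscle markers, 11 were tested, at 5.59 ± 0.05, 5.75 ± 0.13 and 5.90 ± 0.36 in the same order. Only 6 of 14 leukocyte markers were in the table, and they summed to 26.2 to 52.6 normalized counts per library. In whole glomeruli, fewer cells of a type and less RNA per cell cannot be told apart.

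The upstream sequences of the 3 Notch genes that were lower in diabetic saline than in non-diabetic saline glomeruli (limma adjusted p under 0.05, by which 1.81% of all tested genes were lower) are shown because all of them lie on chromosome 2, where Notch1 and Egfl7 are neighbours with 0 protein-coding genes between them. Jag1, which did not pass in this comparison, lies on chromosome 2 as well, so the location is not particular to the lower genes. Each is the 250 bases before a RefSeq transcription start on the gene's own strand, from the RefSeq table for GRCm38.p6, a C57BL/6J reference that is neither the strain of these mice nor the build used by the authors. Capitals mark TGGGAA, the core bound by RBPJ, and GGAAG, a sequence that ETS factors bind, searched on both strands, so that CTTCC is GGAAG on the other strand. Shorter or other forms of the ETS site were not searched. The windows are Notch1 at chr2:26503823-26504072 (minus strand), Dll4 at chr2:119325534-119325783 (plus strand) and the first of 3 Egfl7 starts at chr2:26580833-26581082 (plus strand).
Notch1: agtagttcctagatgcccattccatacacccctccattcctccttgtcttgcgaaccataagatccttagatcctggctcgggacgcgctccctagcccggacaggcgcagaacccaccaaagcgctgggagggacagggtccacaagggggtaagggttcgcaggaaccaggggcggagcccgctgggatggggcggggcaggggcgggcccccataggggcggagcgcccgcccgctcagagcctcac
Dll4: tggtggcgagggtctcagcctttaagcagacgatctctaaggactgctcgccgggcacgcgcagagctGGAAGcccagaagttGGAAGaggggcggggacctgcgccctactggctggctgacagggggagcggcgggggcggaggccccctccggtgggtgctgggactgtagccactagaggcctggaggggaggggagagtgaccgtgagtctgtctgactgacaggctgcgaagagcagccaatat
Egfl7: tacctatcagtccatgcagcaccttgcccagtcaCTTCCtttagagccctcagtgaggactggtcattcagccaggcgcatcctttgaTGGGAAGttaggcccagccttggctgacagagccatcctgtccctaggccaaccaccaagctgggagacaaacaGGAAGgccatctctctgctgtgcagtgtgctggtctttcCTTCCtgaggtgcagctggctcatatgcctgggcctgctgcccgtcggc
The Notch1 window held neither TGGGAA nor GGAAG, which leaves other forms of the ETS site open. The Dll4 window held GGAAG at 2 places, positions -182 and -167 from the start. The Egfl7 window held 4 copies of GGAAG on either strand, and 1 of them overlaps the single TGGGAA, as TGGGAAG. Of 32851 windows of the same length in the RefSeq table, 21.59% held TGGGAA and 64.07% held GGAAG, so both are common in such windows. Starts were given for 7 of the 9 genes, in 9 windows, and the other 6 windows were searched in the same way. In these, GGAAG occurred in the second Egfl7 window and in those of Notch2 and Notch4, while TGGGAA occurred in none.

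Levels of different genes were compared per kilobase of annotated exon. In non-diabetic saline glomeruli the highest level per kilobase was that of Egfl7, at 53.6 ± 3.95 normalized counts per kilobase, followed by Notch1 at 41.1 ± 1.88 (SD, n = 3 each), and the ranges of these genes did not overlap. Notch2 came next at 16.2 ± 0.53 normalized counts per kilobase. Hes1 at 14.5, Notch3 at 13.4, Dll4 at 12.5, Jag1 at 10.0 and Notch4 at 8.12 normalized counts per kilobase followed, and each overlapped its neighbour in this order. Hey1 was lowest, at 0.531 normalized counts per kilobase. In diabetic saline glomeruli Dll4 was the lowest of the 8 tested genes, at 5.43 ± 0.82 normalized counts per kilobase (n = 4), below Notch4 at 6.15 ± 1.34 with overlapping ranges. In diabetic Esm-1 glomeruli the lowest were Notch4 at 3.96 ± 1.26 and Dll4 at 4.11 ± 1.80 normalized counts per kilobase (n = 3), which also overlapped.

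**Figure D1:**
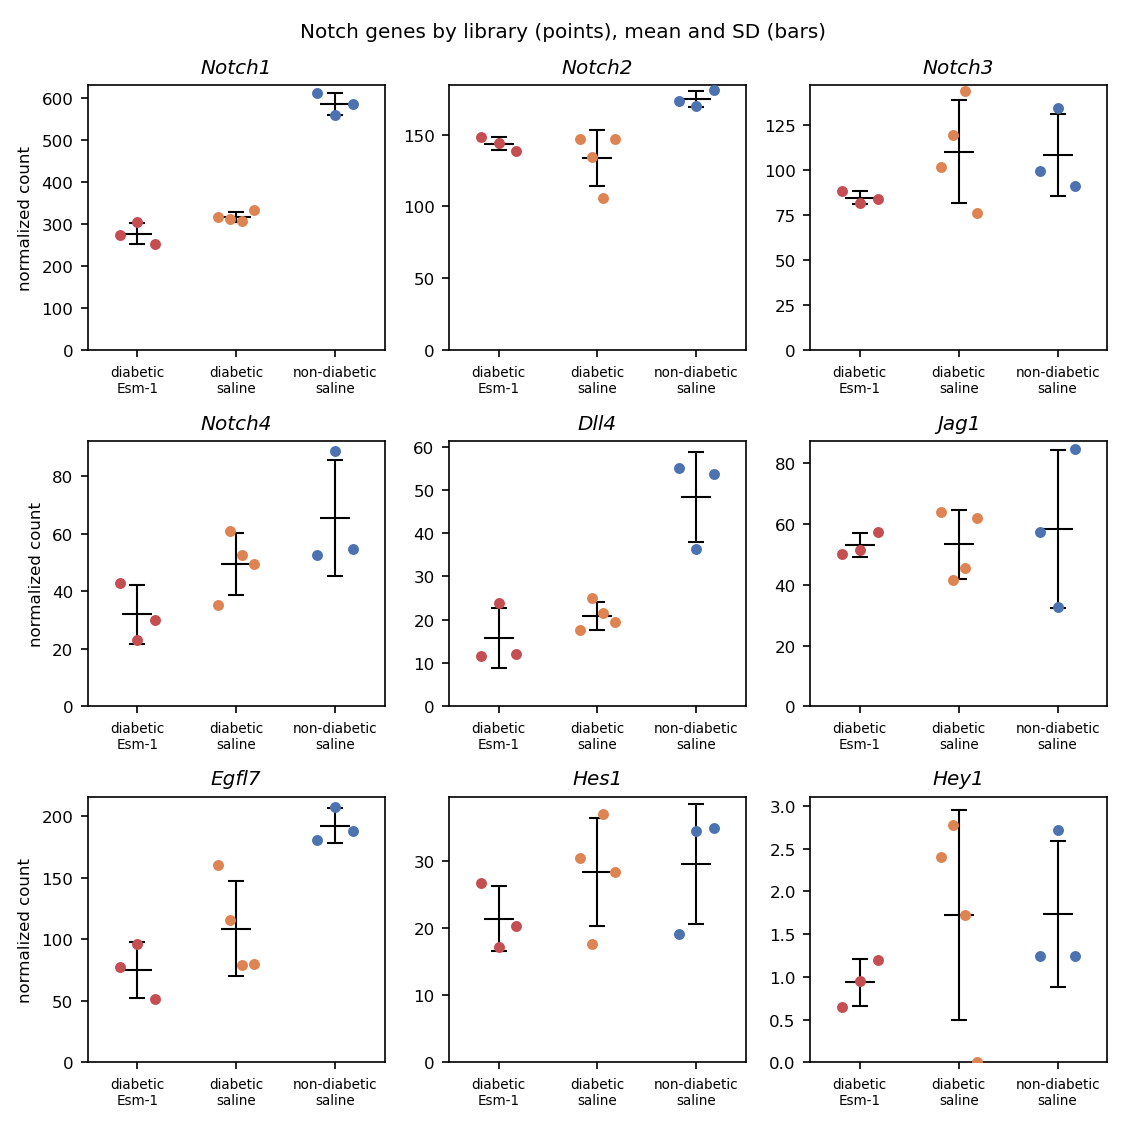
Normalized counts (vertical axis, linear from 0, a separate scale for each gene) of the 9 Notch genes in each library (points) of the diabetic Esm-1 (n = 3), diabetic saline (n = 4) and non-diabetic saline (n = 3) groups, with the mean and SD as bars. For Notch1 the 7 diabetic libraries lie between 253.8 and 334.6 and the 3 non-diabetic ones between 558.6 and 612.3, whereas the groups overlap for Jag1 and Hes1.

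Among the receptors, Notch1 was the most abundant in every group and the one that differed most clearly. It had 273.5, 304.2 and 253.8 normalized counts in the diabetic Esm-1 libraries. In diabetic saline libraries it had 317.6, 311.9, 306.6 and 334.6, and in non-diabetic saline libraries 612.3, 558.6 and 585.8 normalized counts. All 7 diabetic libraries were below all 3 non-diabetic ones, and the 3 diabetic Esm-1 libraries were also below the 4 diabetic saline libraries. The diabetic saline mean of 317.7 ± 12.1 was 1.84-fold lower than the non-diabetic mean of 585.6 ± 26.8, a log2 difference of -0.88 (SE 0.12, limma adjusted p = 0.000101). All folds here come from log2(normalized count + 1), a scale on which genes with low values appear to change less than they do.

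Notch2, the receptor whose human counterpart is mutated in Alagille and Hajdu-Cheney syndromes, had overlapping values in the diabetic groups. Its values were 148.5, 143.99 and 138.9 normalized counts in diabetic Esm-1, 147.2, 134.2, 105.9 and 146.9 in diabetic saline, and 173.3, 169.6 and 180.7 in non-diabetic saline libraries. The diabetic libraries were all below the non-diabetic ones, but the log2 difference of diabetic saline from non-diabetic saline, -0.40 (95% interval -0.71 to -0.08), did not pass the threshold (limma adjusted p = 0.146).

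Notch3, the mural-cell receptor, had 88.6, 82.0 and 83.8 normalized counts in diabetic Esm-1 libraries, 101.6, 119.4, 143.8 and 76.1 in diabetic saline and 99.7, 134.2 and 91.0 in non-diabetic saline. The saline groups overlapped almost fully, with a log2 difference of 0.01 (95% interval -0.40 to 0.42), while the diabetic Esm-1 libraries were below all non-diabetic ones and inside the diabetic saline range.

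Notch4, the receptor most restricted to endothelium, had 43.0, 22.9 and 29.9 normalized counts in diabetic Esm-1 libraries, 35.2, 61.1, 52.5 and 49.6 in diabetic saline and 52.6, 88.9 and 54.8 in non-diabetic saline. The saline groups overlapped, and diabetic saline differed from non-diabetic saline by -0.38 on the log2 scale (95% interval -0.89 to 0.14). All 3 diabetic Esm-1 libraries were below all 3 non-diabetic ones.

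Within a library, the share of Notch1 among the 4 receptors, each per exon length, does not depend on the library's scaling. This share was 39.0% to 44.8% in diabetic Esm-1 libraries, 38.7% to 44.6% in diabetic saline and 47.5% to 55.2% in non-diabetic saline. The diabetic groups covered nearly the same range, and both were below the non-diabetic one. The mean share of Notch2 was 28.2% in diabetic Esm-1, 22.8% in diabetic saline and 20.6% in non-diabetic saline, and that of Notch4 was 8.35%, 11.2% and 10.2% in the same groups.

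Of the ligands, Dll4, the Delta-like ligand of endothelial tip and arterial cells, was lower in both diabetic groups, and Jag1 showed no detectable difference. Dll4 had 11.7, 23.8 and 12.0 normalized counts in diabetic Esm-1 libraries, 17.6, 25.0, 21.5 and 19.5 in diabetic saline and 55.1, 36.3 and 53.6 in non-diabetic saline. Every diabetic library was below every non-diabetic one, and the diabetic groups overlapped. These values rest on few reads: 10 to 25 per library in diabetic Esm-1, 11 to 27 in diabetic saline and 40 to 89 in non-diabetic saline. The diabetic saline mean of 20.9 ± 3.16 was 2.23-fold lower than the non-diabetic mean of 48.3 ± 10.5 (log2 difference -1.16, SE 0.27, limma adjusted p = 0.0130), a difference at the 0.716 percentile of all 8239 tested genes. This call ended without non-diabetic replicate 1 (adjusted p = 0.0799 by limma) or replicate 3 (0.0590), and without both libraries whose titles carry numbers below 100, 1 in each saline group (0.0779). The labels do not say what these numbers stand for.

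Jag1, the Jagged ligand of endothelium and smooth muscle, had 50.1, 51.5 and 57.5 normalized counts in diabetic Esm-1 libraries, 64.0, 41.6, 45.7 and 62.0 in diabetic saline and 57.6, 32.6 and 84.8 in non-diabetic saline. The non-diabetic libraries spanned the whole range of the others, and the log2 difference of diabetic saline from non-diabetic saline was -0.05 (95% interval -0.57 to 0.48). Within libraries, the log2 value of Dll4 minus that of Jag1 was -2.17 to -1.08 in diabetic Esm-1, -1.80 to -0.71 in diabetic saline and -0.65 to 0.15 in non-diabetic saline. The saline groups did not overlap in this difference, by a narrow margin.

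Egfl7, a protein that endothelial cells secrete, that can bind Notch receptors and whose gene hosts the microRNA miR-126, had the highest level per kilobase of the 9 in non-diabetic saline glomeruli. It had 77.5, 96.3 and 51.5 normalized counts in diabetic Esm-1 libraries, 160.0, 115.7, 79.2 and 79.7 in diabetic saline and 180.2, 207.7 and 188.2 in non-diabetic saline. The non-diabetic libraries were above all diabetic ones. Diabetic saline replicate 1 came closest to them, and replicates 3 and 4 lay among the diabetic Esm-1 libraries. The diabetic saline mean of 108.6 ± 38.3 was 1.83-fold lower than the non-diabetic mean of 192.0 ± 14.1 (log2 difference -0.88, SE 0.23, limma adjusted p = 0.0258). The call ended without non-diabetic replicate 1, 2 or 3 or diabetic saline replicate 3 or 4 (limma adjusted p of 0.0605 to 0.0921), without both libraries whose titles carry numbers below 100 (0.111) and in a fit without an intensity trend (0.139).

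Neither target differed detectably between the saline groups. Hes1, a basic helix-loop-helix repressor induced by the Notch intracellular domain, had 26.7, 17.2 and 20.4 normalized counts in diabetic Esm-1 libraries, 30.4, 17.6, 37.0 and 28.3 in diabetic saline and 19.2, 34.5 and 34.9 in non-diabetic saline. The 3 groups overlapped, and diabetic saline differed from non-diabetic saline by -0.06 on the log2 scale (95% interval -0.64 to 0.53). This interval does not reach the -0.88 of Notch1 but overlaps the Notch1 interval of -1.14 to -0.62, and the genes' differences were not compared by a test. Hey1, the target most tied to arterial endothelium, had 1, 1 and 1 reads in diabetic Esm-1 libraries, 3, 3, 2 and 0 in diabetic saline and 2, 3 and 1 in non-diabetic saline. All libraries were at or under the 3-read floor. Its summed reads per unit of depth gave a ratio of 1.16 for diabetic saline over non-diabetic saline (exact 95% counting interval 0.352 to 4.05), and no difference was detectable at this depth.

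Reads of some of these genes overlap other annotated exons, and whether the counting used strand is not given in the sources used here, so they cannot be told apart from those genes there. Dll4 shares 5.56% of its exon bases with Gm14207 on the opposite strand, which averaged 1.27 normalized counts. Egfl7 shares 1.79% with Agpat2 on the opposite strand, which averaged 14.3, and contains Mir126a. Its largest overlap is 7.37% with Gm20532 on the same strand, which counting by strand would not separate. Notch2 shares 5.02% with Gm42820 on the same strand, and Notch3 shares 6.03% with Gm17276 on the opposite strand. Notch1 shares 7.50% with 0610009E02Rik on the opposite strand.

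The comparison of diabetic saline with non-diabetic saline glomeruli thus gave 3 lower genes, Notch1, Dll4 and Egfl7, and 0 higher genes among the 8 tested. On recovered reads, edgeR and DESeq2 likewise called 3 lower and 0 higher. Over all 8239 tested genes 1.81% were lower and 3.73% higher by the same rule, a limma adjusted p under 0.05, and nothing is read from the higher share among the Notch genes because these differences were known when the genes were listed. The median log2 difference was -0.39 over the 8 genes and -0.007 over all tested genes. Differences of endothelial markers stood beside these values: 2 of 19 were lower (Nos3 and Mmrn2), their median difference was -0.32, and the mean over the list differed by -0.30 on the log2 scale (two-sided exact permutation p = 0.171, smallest possible 0.0286). Pecam1 differed by -0.50 (limma adjusted p = 0.0698) without overlap and Cdh5 by -0.31 (adjusted p = 0.275) with overlap. The podocyte list had 5 of 20 members lower and the distal nephron list 4 of 10 higher. Of 12 proximal tubule markers, 3 were lower (Slc22a6, Kap and Cyp4b1). With the endothelial marker mean of each library as a covariate, Notch1 kept its call at a log2 difference of -0.92 (limma adjusted p = 0.000234), whereas Dll4 (-1.12, adjusted p = 0.0829) and Egfl7 (-0.82, adjusted p = 0.123) lost theirs. With the podocyte marker mean in its place, Notch1 again passed (-0.88, limma adjusted p = 0.000641), and Dll4 (-1.14, adjusted p = 0.0913) and Egfl7 (-0.91, adjusted p = 0.0943) did not.

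**Figure D2:**
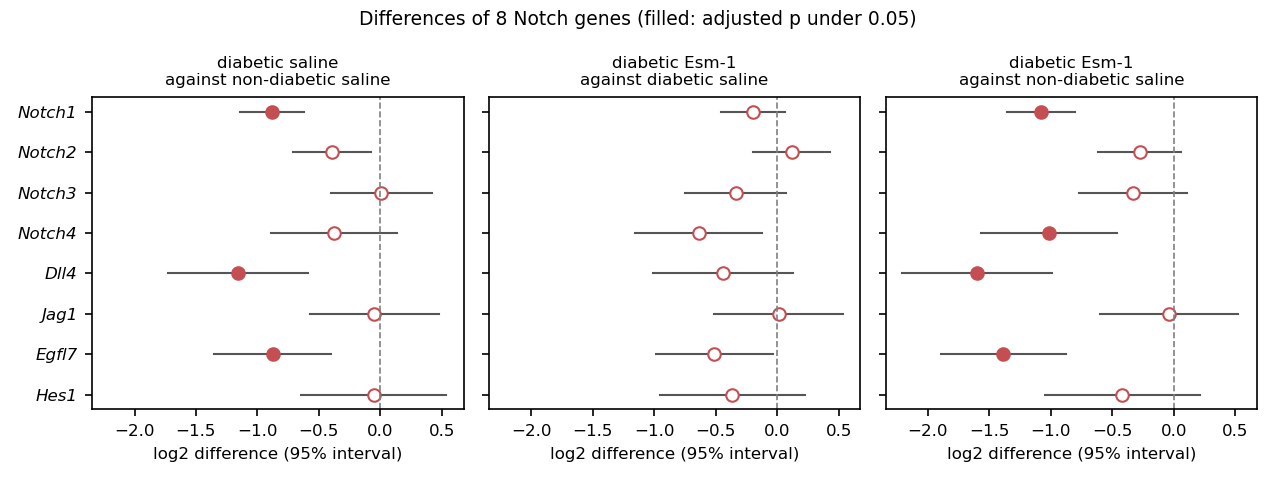
Log2 difference (horizontal axis) of the 8 tested Notch genes in each of the 3 comparisons, with its 95% interval as a line; filled points passed a limma adjusted p under 0.05. Diabetic saline against non-diabetic saline has 3 filled points, diabetic Esm-1 against diabetic saline has 0, and diabetic Esm-1 against non-diabetic saline has 4, all to the left of the dashed line at 0.

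The comparison of diabetic Esm-1 with diabetic saline glomeruli sets the Esm-1 plasmid and transposase together against saline in diabetic mice. None of the 8 Notch genes passed, and limma called 0 genes over the whole table in either direction (0% lower and 0% higher of 8239), with 899 genes at an unadjusted p under 0.05. On the reads recovered from the table, edgeR also called 0 genes, and DESeq2 called 32 of the 1530 genes to which it gave an adjusted p, with 4 of the 8 Notch genes among those 1530 and 0 of these called. Of the 8 Notch genes, 2 had an unadjusted p under 0.05 with limma. They were Notch4, with a mean of 31.9 ± 10.2 in diabetic Esm-1 and 49.6 ± 10.8 in diabetic saline (log2 difference -0.64, 95% interval -1.15 to -0.12, limma adjusted p = 0.333), and Egfl7, with 75.1 ± 22.5 and 108.6 ± 38.3 in the same groups (-0.51, interval -0.99 to -0.03, adjusted p = 0.417). Notch1 differed by -0.20 (interval -0.46 to 0.06, limma adjusted p = 0.599) although its groups did not overlap, and Dll4 by -0.44 (interval -1.01 to 0.13, adjusted p = 0.594). Notch2 (0.12) and Jag1 (0.01) were the ones with a difference above 0, and the median over the 8 genes was -0.35, against 0.005 over all tested genes. Among endothelial markers, Cdh5 differed by -0.58 (limma adjusted p = 0.163) without overlap and Pecam1 by -0.41 (adjusted p = 0.333) with overlap. The endothelial marker mean differed by -0.48 on the log2 scale between diabetic Esm-1 and diabetic saline libraries (two-sided exact permutation p = 0.0571, smallest possible 0.0286). The podocyte markers had a median difference of -0.69 and the proximal tubule markers one of 0.76. The part of these markers in the differences of Notch4 and Egfl7 was not tested beyond the fits with a covariate, in which Notch4 differed by 0.04 with the endothelial mean and 0.12 with the podocyte mean, and Egfl7 by -0.41 and -0.56.

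Diabetic Esm-1 against non-diabetic saline shares its libraries with the other comparisons and is not a separate experiment. In it Notch1, Notch4, Dll4 and Egfl7 were lower and 0 of the 8 genes were higher by limma, edgeR or DESeq2, while 8.11% of all tested genes were lower and 7.19% higher. Dll4 averaged 15.8 ± 6.93 in diabetic Esm-1 and 48.3 ± 10.5 in non-diabetic saline, 3.03-fold lower (log2 difference -1.60, SE 0.29, limma adjusted p = 0.000826). Egfl7 was 2.61-fold lower (-1.39, SE 0.24, limma adjusted p = 0.000652), Notch1 2.11-fold lower (-1.08, SE 0.13, adjusted p = 2.05e-05) and Notch4 2.02-fold lower (-1.02, SE 0.27, adjusted p = 0.0121). The Notch4 call ended in a fit without an intensity trend (limma adjusted p = 0.0525), without diabetic Esm-1 replicate 2 (limma adjusted p = 0.0879) or replicate 3 (0.0521), and without non-diabetic replicate 2 (0.0762). Notch2 (-0.28), Notch3 (-0.33), Hes1 (-0.42) and Jag1 (-0.04) did not pass. Here 14 of 19 endothelial and 15 of 20 podocyte markers were lower as well, among them Pecam1 (-0.91) and Cdh5 (-0.90), the endothelial junction genes. Of 11 mesangial and smooth-muscle markers, 4 were lower and 0 higher (median difference -0.28), and Notch3 was not set against this list. With the endothelial mean as a covariate only Notch1 kept its call (-1.18, limma adjusted p = 0.0246), and with the podocyte mean none of the 8 did. The differences of Dll4 and Egfl7 were still -1.49 and -1.23 with the endothelial mean, and those of Notch1, Dll4 and Egfl7 -1.08, -1.55 and -1.47 with the podocyte mean, whereas Notch4 differed by 0.08 with the endothelial and 0.215 with the podocyte mean.

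Set against the endothelial marker mean of the same library, the Notch genes behaved unequally. In diabetic saline libraries Notch1 stood 2.100, 1.655, 1.673 and 2.187 log2 units above it, and in non-diabetic saline 2.708, 2.251 and 2.502, so the groups did not overlap, by a narrow margin, and the means differed by -0.58. Dll4 stood at -1.999, -1.93, -2.10 and -1.85 in diabetic saline and at -0.74, -1.66 and -0.92 in non-diabetic saline, again without overlap, with a difference of -0.86. For Notch4 the difference shrank to -0.08, and for Egfl7 it was -0.58 with overlapping groups because diabetic saline replicate 1 was at 1.11. In diabetic Esm-1 against non-diabetic saline, the groups overlapped for both Notch1 (-0.30) and Dll4 (-0.82). The Dll4 difference was nonetheless close to the -0.86 of diabetic saline. Egfl7 differed by -0.61 without overlap. Notch2 (0.50) and Notch3 (0.45) stood higher above the endothelial mean there, also without overlap, while that mean itself differed by -0.78. Between the diabetic groups, the differences of Dll4 (0.04), Egfl7 (-0.03) and Notch4 (-0.16) from this mean were small against their spread. Notch2 stood further above the mean in diabetic Esm-1 libraries, at 1.15, 1.24 and 1.36 against 0.995, 0.445, 0.149 and 1.005 in diabetic saline ones, without overlap and with a difference of 0.60. Most of this lay in the endothelial mean, which differed by -0.48, whereas the log2 value of Notch2 itself differed by 0.12. Jag1 (0.50) and Notch1 (0.28) were also higher relative to this mean, with overlap. These are descriptions without a test, since Notch1, Dll4 and Egfl7 had been seen to differ.

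**Figure D3:**
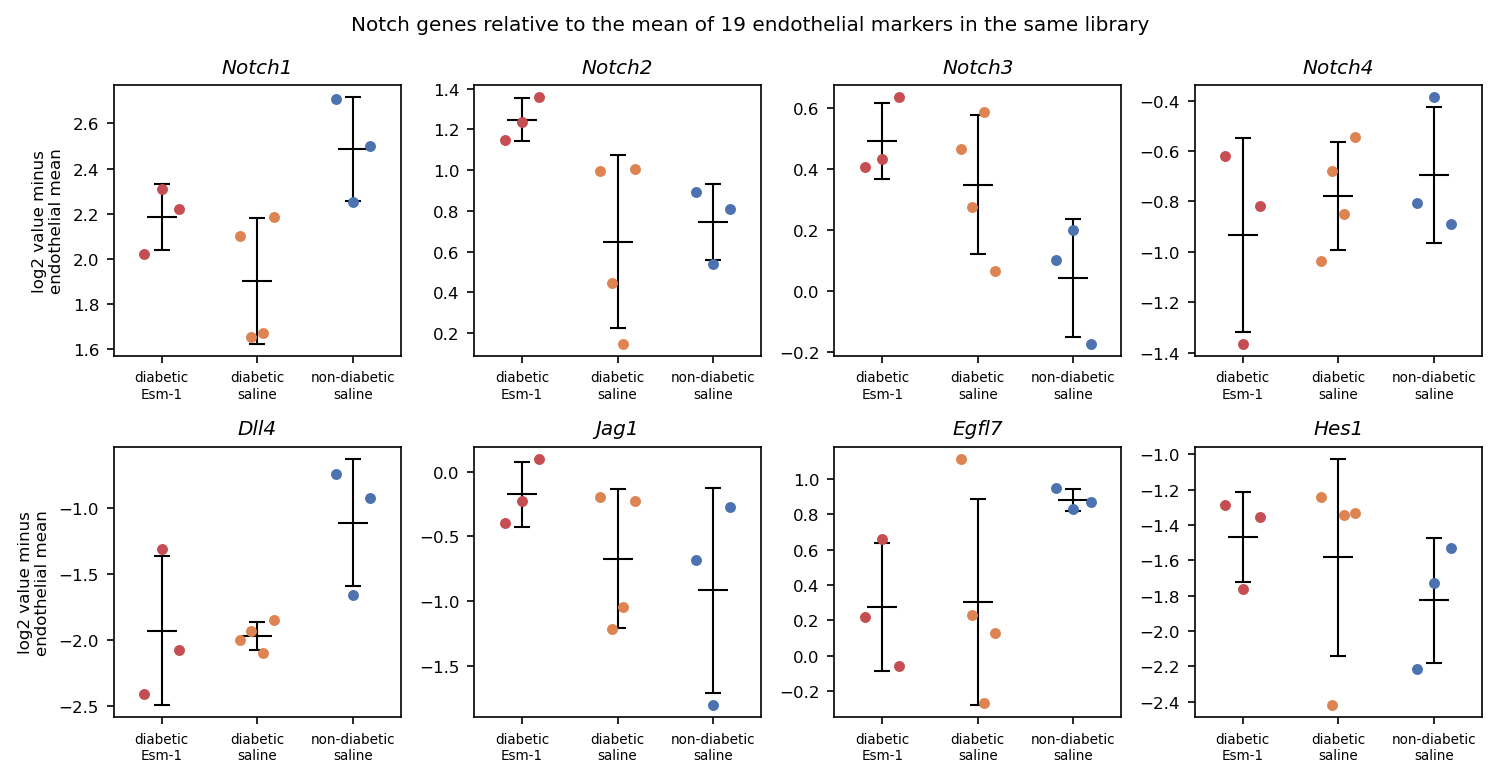
Log2 value of each tested Notch gene minus the mean log2 value of 19 endothelial markers in the same library (vertical axis, a separate scale for each gene), for each library (points) of the 3 groups, with the mean and SD as bars. Notch1 and Dll4 stay lower in diabetic saline than in non-diabetic saline libraries (differences of -0.58 and -0.86), and Notch4 does not separate the groups.

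The rest of the pathway was taken from a list of 68 genes, of which 61 were in the table and 48 were tested, 40 of them outside the 8 genes above. Of these 40, 1 was lower and 0 were higher in diabetic saline against non-diabetic saline, 0 passed in diabetic Esm-1 against diabetic saline, and 5 were lower and 0 higher in diabetic Esm-1 against non-diabetic saline. By the same rule 1.81% of all tested genes were lower in the first comparison and 8.11% in the last. In the Esm-1 comparison edgeR also called 0 of the 40 and DESeq2 0 of the 8 to which it gave an adjusted p, and 2 lower and 1 higher gene had an unadjusted limma p under 0.05. Median differences of the 40 were -0.16, -0.14 and -0.31 in these comparisons. The single gene of the diabetes comparison was Ctbp2, a corepressor, at 44.4 in diabetic saline and 72.4 normalized counts in non-diabetic saline (-0.71, limma adjusted p = 0.0311), while DESeq2 called 0 of the 40 in this comparison. In diabetic Esm-1 it was at 61.5, between the others, and its difference from diabetic saline, 0.47, did not pass (limma adjusted p = 0.357).

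Of the 8 tested receptor-processing genes, 0 passed in any comparison by limma, edgeR or DESeq2 (which in the Esm-1 comparison gave an adjusted p to only 1 of them), and 0 had an unadjusted p under 0.05. Furin, which cleaves the receptor precursor, averaged 202 in diabetic Esm-1, 226 in diabetic saline and 210 normalized counts in non-diabetic saline. Of the trafficking and turnover genes, 0 of 10 passed in diabetic saline against non-diabetic saline by limma, edgeR or DESeq2, with 1 lower at an unadjusted limma p under 0.05. There Mib1, the ubiquitin ligase that activates ligands, differed by -0.44 and Numb, an inhibitor of Notch, by -0.39. Nedd4, another ubiquitin ligase, was lower in diabetic Esm-1 than in non-diabetic saline (-0.53, limma adjusted p = 0.0318), a call that edgeR did not make, and differed by -0.30 from diabetic saline.

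Of the 16 nuclear cofactors tested, 4 were lower in diabetic Esm-1 against non-diabetic saline by limma and 4 by edgeR, but 2 by DESeq2, where 8.11% of all tested genes were lower by limma. Maml1, the Mastermind coactivator, averaged 45.0 in diabetic Esm-1, 68.3 in diabetic saline and 87.4 normalized counts in non-diabetic saline, with a difference of -0.96 between the outer groups (limma adjusted p = 0.00518). Its difference between the diabetic groups, -0.59, did not pass. The acetyltransferases Crebbp (-0.46, limma adjusted p = 0.0360) and Kat2a (-1.33, adjusted p = 0.0411, at 5.90 in diabetic Esm-1 and 15.5 normalized counts in non-diabetic saline) were also lower. Of 9 listed targets, Hes1 and Heyl were the 2 tested. Heyl, named after its values were seen, averaged 11.4 in diabetic Esm-1, 9.11 in diabetic saline and 18.1 normalized counts in non-diabetic saline, and its differences did not pass (limma adjusted p = 0.138 for diabetic saline against non-diabetic saline).

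**Figure D4:**
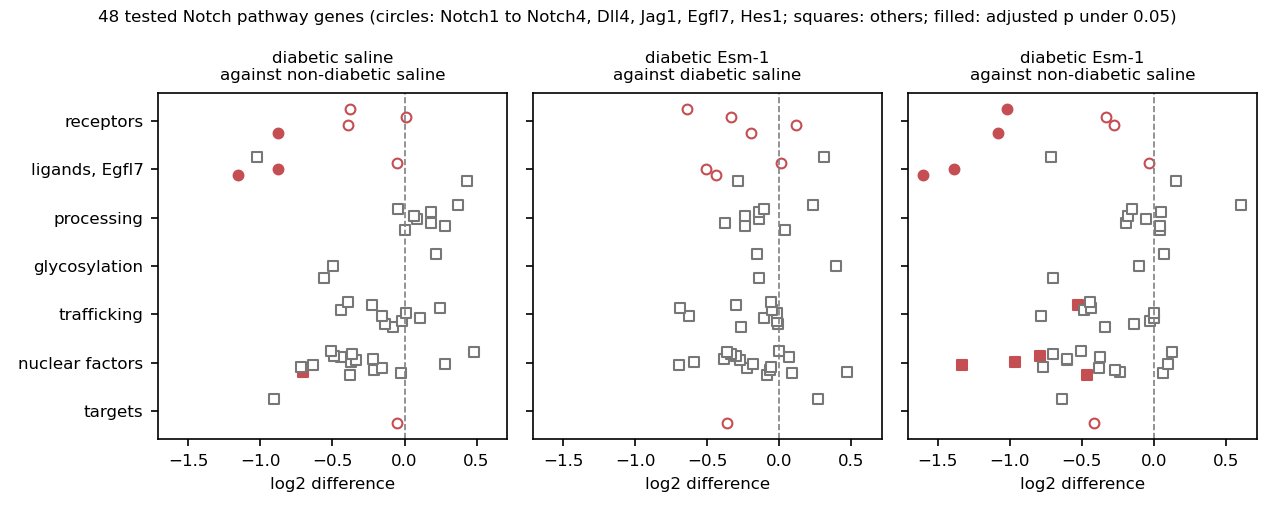
Log2 difference (horizontal axis) of the 48 tested Notch pathway genes in the 3 comparisons, in lines by role; circles are the 8 genes described above, squares the other 40, and filled symbols passed a limma adjusted p under 0.05. The processing genes, none of which passed, range from -0.05 to 0.37, -0.38 to 0.23 and -0.19 to 0.60 from left to right. The filled squares are 1, 0 and 5 in number in the same order.

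Genes whose pattern was most like that of Notch1 were ranked by Pearson's r of the log2 values over the 10 libraries, which share the 3 groups, so r includes the difference between groups. The 5 highest for Notch1 were Plxnd1 (r = 0.974), an endothelial semaphorin receptor, Macf1 (0.968), Rusc2 (0.965), Nos3 (0.958), the endothelial nitric oxide synthase, and Tet3 (0.958). Within groups, r over the same libraries was 0.59 for Plxnd1 and Macf1, 0.33 for Nos3, -0.08 for Rusc2 and -0.26 for Tet3. The 5 most like Dll4 were Cyp2d11 (0.960), Foxc2 (0.936), a podocyte transcription factor, Notch1 (0.933), Macf1 (0.929) and Plxnd1 (0.926). Within groups, r was 0.80, 0.61, 0.69, 0.59 and 0.50 in the same order. Cyp2d11 averaged only 5.54 normalized counts over the 10 libraries. Its log2 difference from non-diabetic saline was -2.03 in diabetic saline and -2.84 in diabetic Esm-1. Its r rests on few reads, although its within-group r of 0.80 was the highest of these 5.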

How the data were processed

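Per the submitters' processing notes, the authors used Trimmomatic 0.36 for trimming, STAR 2.5.3a with mm9 for alignment, and DESeq2 1.28.1 with R 4.0.2 for normalization. How reads were counted, with which annotation and with or without strand, is not stated in the sources used here. The authors deposited a signal per gene and library, a normalized count, for 12934 genes and 10 libraries. Each library's values are multiples of the value of 1 read, so whole reads could be recovered for 100% of 129340 values (tolerance 0.001).

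The genes, gene lists and alternatives were chosen with earlier results of these data known. The fit used log2(normalized count + 1) for 8239 genes that reached 10 in 3 or more libraries, and left out 4695. It was 1 limma 3.58.1 fit of the 3 groups with an intensity trend (R 4.3.3), two-sided, with Benjamini-Hochberg adjustment across all tested genes and a threshold of 0.05. Alternatives changed the pseudocount (5), the filter (none), the scaling (total over all genes but Rn45s, Lars2 and Mir6236), the tool (edgeR 4.0.16 and DESeq2 1.42.0 on recovered reads), the covariates (endothelial or podocyte marker mean), the trend, the groups fitted together, and the libraries included. The limma fit without covariates was tested on simulated counts, and edgeR, DESeq2 and the covariate fits were not. Counting intervals (95%) and the 3-read floor cover counting error only. Replicate numbers follow the order of the records. Exon lengths and overlaps came from GENCODE M21, another build than the authors', so no coordinates were taken from it.

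All 9 Notch genes were named. Of each other pathway list, up to 6 genes past the threshold with the lowest p were named, or, where none passed, up to 2 with the largest difference and a mean of at least 50. The 5 genes with the highest correlation with Notch1 and with Dll4, and Esm1, Pecam1 and Cdh5, were named whatever their values. Heyl, Jag2, Rbpj and the marker genes past the threshold were named after their values were seen. Some genes picked by this rule are not reported here but stayed in all fits and counts.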

Additional observations from a re-analysis of the deposited data

How the results depend on the processing

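The Notch1 difference between diabetic saline and non-diabetic saline kept its direction and its call in all 20 alternatives. The 3 genes called there became 1 with the endothelial marker mean as a covariate, 1 with the podocyte marker mean and 1 without both libraries with title numbers below 100, and 1 to 3 when single libraries were left out (1 without non-diabetic replicate 1 or 3). The 4 genes called in diabetic Esm-1 against non-diabetic saline became 1 with the endothelial and 0 with the podocyte covariate, where Notch1 reached a limma adjusted p of 0.0816, and 3 to 4 when single libraries were left out. In diabetic Esm-1 against diabetic saline 0 of the 8 genes were called in any alternative, although DESeq2 gave an adjusted p to only 4 of them. With all genes counted, the 456 calls of the diabetes comparison became 256 and 211 with the endothelial and podocyte covariates, 224 without the trend, 288 and 295 without non-diabetic replicates 2 and 1 and 292 without diabetic saline replicate 3. The 0 calls of the Esm-1 comparison became 32 with DESeq2, 52 without diabetic saline replicate 1 and 10 without diabetic Esm-1 replicate 1. The 1260 of diabetic Esm-1 against non-diabetic saline became 63 and 40 with the endothelial and podocyte covariates, 791 without the trend, and 702, 623 and 841 without diabetic Esm-1 replicates 2 and 3 and non-diabetic replicate 2. These covariates differ between the groups, so such fits have less information on the group difference. Otherwise the causes were not tested.

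Differences that changed sign did not pass the threshold in either fit, except Notch4 in diabetic Esm-1 against non-diabetic saline. With the endothelial covariate Notch4 (0.038) and Hes1 (0.035) turned positive in the diabetes comparison, Notch2 (-0.075), Notch3 (0.23), Notch4 (0.038) and Jag1 (-0.69) changed sign in the Esm-1 comparison, and Notch3 (0.59) and Notch4 (0.076) in diabetic Esm-1 against non-diabetic saline. With the podocyte covariate Notch4 (0.10) did so in the diabetes comparison, Notch2 (-0.029), Notch3 (0.072), Notch4 (0.12) and Jag1 (-0.75) in the Esm-1 comparison, and Notch3 (0.34) and Notch4 (0.215) in diabetic Esm-1 against non-diabetic saline. Hes1 in the diabetes comparison was 0.0056 with edgeR and 0.071 without both libraries with title numbers below 100, where Jag1 was 0.19, and Jag1 was 0.28 there in diabetic Esm-1 against non-diabetic saline. With single libraries left out, the diabetes comparison ranged from -0.13 to 0.17 for Notch3, -0.41 to 0.27 for Jag1 and -0.33 to 0.15 for Hes1, and Jag1 from -0.094 to 0.11 in the Esm-1 comparison and -0.39 to 0.28 in diabetic Esm-1 against non-diabetic saline. No paired analysis was possible because the replicate numbers follow the order of the records and pair nothing. Depth limits Dll4 and Hes1, with as few as 10 and 16 reads in a library, and leaves Hey1 untested.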

Other observations

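Notch signalling is known to promote arterial over venous identity in endothelium. Of 8 tested genes of arterial endothelium, 1 was higher and 0 were lower in diabetic saline against non-diabetic saline glomeruli by limma (1 lower at an unadjusted p under 0.05), with a median log2 difference of 0.008. Over all tested genes 3.73% were higher and 1.81% lower. On recovered reads, edgeR and DESeq2 each called 2 higher and 0 lower. The higher one was Cxcr4, a chemokine receptor, at 19.03 in diabetic saline and 5.54 normalized counts in non-diabetic saline (log2 difference 1.59, limma adjusted p = 0.0218). Its non-diabetic mean was below the filter value and rests on few reads, so Cxcr4 entered the tests through its diabetic libraries. Whether this call reflects arterial identity was not tested. Of 5 venous or tip-cell genes, 0 passed by limma, edgeR or DESeq2, with 1 lower at an unadjusted limma p under 0.05 and a median of -0.07. In diabetic Esm-1 against non-diabetic saline, the arterial genes Efnb2, an ephrin (-0.66, limma adjusted p = 0.0408), and Nrp1, a VEGF coreceptor (-0.64, adjusted p = 0.00715), were lower, and the list's median was -0.47. These are 2 of 8 genes, where 8.11% of all tested genes were lower.

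Jag2, a second Jagged ligand, averaged 9.07 in diabetic Esm-1, 7.71 in diabetic saline and 15.3 normalized counts in non-diabetic saline, and its differences did not pass (limma adjusted p = 0.203 for diabetic saline against non-diabetic saline). Rbpj, the DNA-binding partner of all 4 receptors, averaged 20.8 in diabetic Esm-1, 26.2 in diabetic saline and 34.1 normalized counts in non-diabetic saline, with a difference of -0.70 between the outer groups that also did not pass (limma adjusted p = 0.0605).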
